A study of Mus musculus with 4 samples.

Results

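Collagens are the triple-helical proteins that give the arterial wall its tensile strength, and each kind of chain is encoded by its own gene. The 44 mouse collagen chain genes described here are those of 22180 genes with a symbol of their own on the array whose symbol is Col, a type number, the letter a and a chain number. They were grouped as 11 fibrillar chains, 9 network chains, 9 fibril-associated chains with interrupted helices (FACIT), 4 transmembrane chains, 6 beaded-filament chains of type VI, 2 multiplexins (Col15a1 and Col18a1), the anchoring-fibril chain Col7a1 and 2 others (Col26a1 and Col28a1). Where a gene had several array rows, the brightest row, by its average across all 4 arrays, was used.

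The RNA came from vascular smooth muscle cells in primary culture, the contractile and matrix-producing cells of the arterial media, grown for 5 days from thoracic aortas after the adventitia had been stripped. All mice lacked Apoe, carried floxed Mmp14 alleles and had eaten a Western diet for 3 months. The 2 control arrays came from SM22α-Cre(−)Mmp14(fl/fl)Apoe(−/−) cells and the 2 knockout arrays from SM22α-Cre(+)Mmp14(fl/fl)Apoe(−/−) cells, in which Cre under the smooth muscle promoter SM22α (Tagln) deletes Mmp14 in cells that express it. The design text names 2 independent pairs of mice, and the sources used here give neither age nor sex. The comparison asked which transcripts depend on MT1-MMP, the product of Mmp14, in these cells.

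MT1-MMP is a membrane-anchored collagenase that cuts fibrillar collagens I, II and III in their triple helix. Fibrillar chains are secreted as procollagens, trimmed of their end peptides, packed into fibrils and cross-linked, whereas type IV and type VIII chains form sheet-like networks and FACIT chains coat the fibril surface. Types I and III dominate the fibrils of the arterial wall, with a minor share of type V that helps to start them.

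Values are log2 expression on the authors' normalised scale, and every difference is knockout minus control in log2 units. Levels were compared only within a gene, since a level on an array also depends on its probes. Of the 44 genes, 32 had a mean at or above 3.02, the median of all array rows, and were tested with limma within a set of 12550 genes. The remaining 12 lay below that level, with means of 2.41 to 2.93. With 2 arrays a group the smallest two-sided exact permutation p is 0.333, so the precision is set by the number of arrays.

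Collagen chain genes had differences in both directions between knockout and control cells, and no member passed the test over all genes. By limma, 0 of the 12550 tested genes (0%) had an adjusted p under 0.05, and Col3a1 had the lowest value of the collagen chains, an adjusted p of 0.287 by limma. At an unadjusted p under 0.05 there was 1 higher member, Col3a1, against 4.89% of all tested genes, and 1 lower member, Col11a1, against 6.78%. Of the 32 tested members 17 were higher (41.7% of all tested genes) and 15 lower (58.3%), and their median difference was 0.05 beside -0.05 over all tested genes. That median was -0.017 without knockout replicate 1, and 0.26 over the 12 members left by a stricter filter on dim genes. The median over all genes was not computed for either setting. In 5 members both knockout arrays lay above both control arrays (16.7% of all tested genes) and in 7 both lay below (27.5%). The shares without overlap were near or below those of all genes, so as a family the collagen chains were not set apart by them. Because the cultures were measured in bulk, fewer cells of a type and less RNA per cell cannot be told apart.

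**Figure D1:**
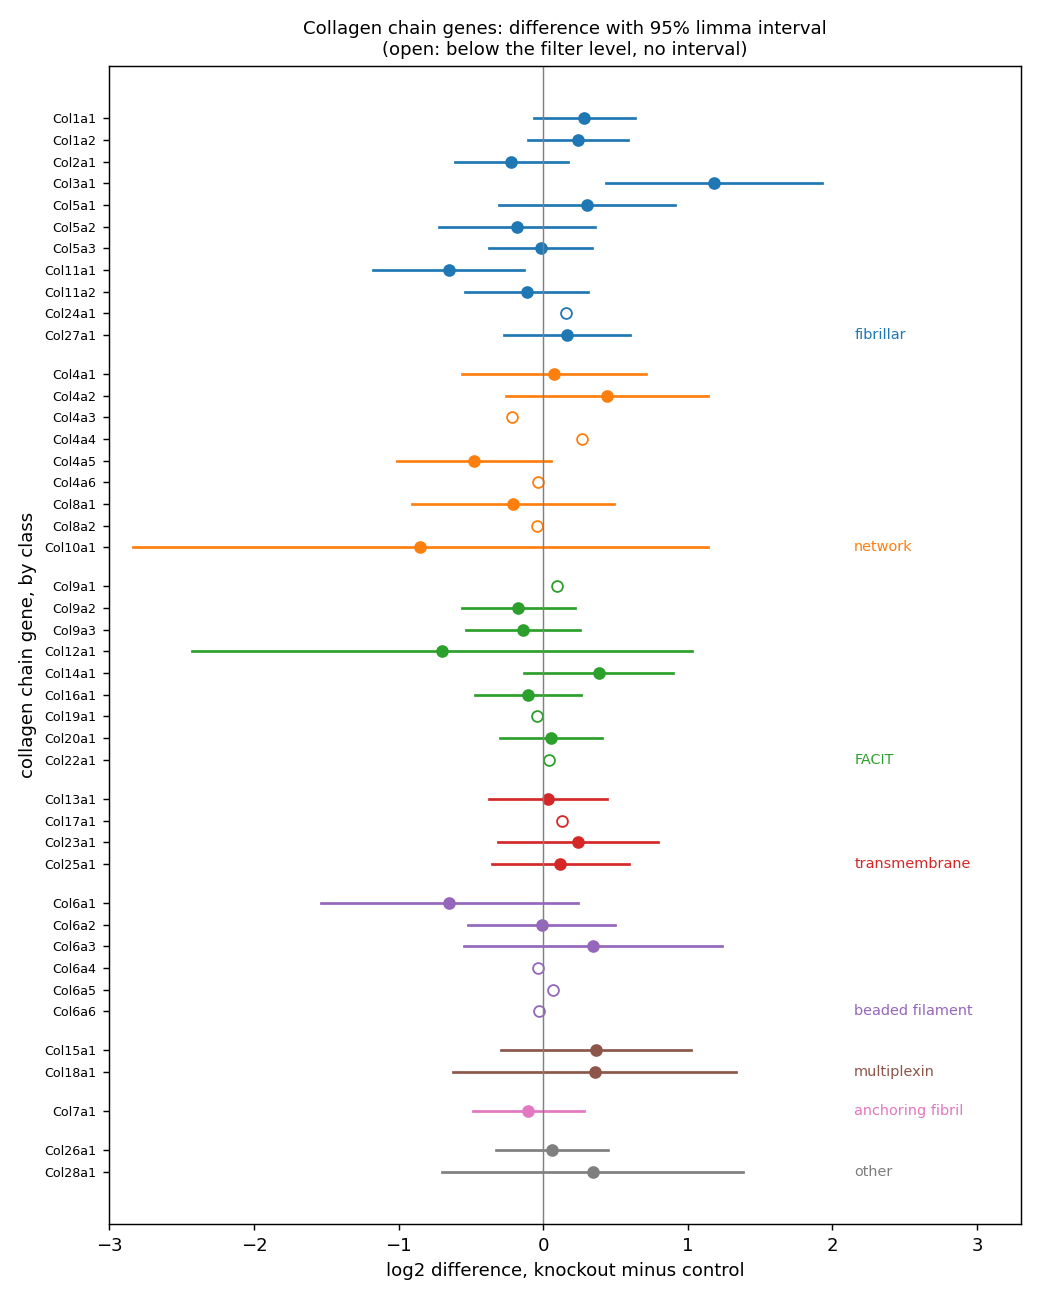
Log2 difference, knockout minus control, of all 44 collagen chain genes by class, as points with 95% limma intervals for the 32 tested genes; open points mark the 12 genes below the filter level, without an interval. The interval lies wholly above 0 for Col3a1 (0.44 to 1.93) and wholly below 0 for Col11a1 (-1.17 to -0.13) and spans 0 for the other 30.

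Among the fibrillar chains, the widest difference was that of Col3a1, the chain of homotrimeric type III collagen, a main fibrillar collagen of the arterial wall. Col3a1 read 5.45 and 5.40 in control cells against 6.999 and 6.22 in knockout cells. Both knockout arrays lay well above the controls, which were close to each other, while the knockouts differed by 0.78. The difference was 1.18 (SE 0.29, 95% interval 0.44 to 1.93), or 2.27-fold, with an unadjusted p of 0.0101 and an adjusted p of 0.287 by limma. It was 0.79 without knockout replicate 1 and 1.57 without knockout replicate 2. Col3a1 was the only member higher by at least 1 log2 unit without overlap, where 1.79% of all tested genes were, and 0 members were lower by that much, where 1.29% were.

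Both chains of type I collagen, the main load-bearing fibril of the adventitia and media, read slightly higher in both knockout arrays than in either control. Col1a1 read 7.98 and 8.05 in control cells against 8.33 and 8.27 in knockout cells. Its difference was 0.29 (SE 0.13, 95% interval -0.07 to 0.64; adjusted p = 0.497 by limma). Col1a2, the partner chain of the same heterotrimer, read 10.21 and 10.23 in control cells against 10.43 and 10.48 in knockout cells. Its difference was 0.24 (SE 0.13, 95% interval -0.11 to 0.59; adjusted p = 0.546 by limma). For both chains the groups did not overlap and the arrays of a group lay within 0.068 of each other, so the difference was larger than the gap within either group. A second array row of Col1a2, with another set of probes, read 7.35 and 7.61 in control cells against 7.80 and 7.88 in knockout cells, and the means differed by 0.35. With each array left out in turn, the Col1a1 difference ran from 0.25 to 0.32 and that of Col1a2 from 0.21 to 0.26.

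Col3a1 also read higher relative to Col1a1 in the knockouts. Within each array, the Col3a1 value minus the Col1a1 value, taken as a deviation from its mean over the 4 arrays, was -0.39 and -0.50 in control arrays, against 0.80 and 0.09 in knockout arrays. The groups did not overlap, and the balance moved by 0.90. The same measure for Col1a1 against Col1a2 was -0.04 and 0.00 in control arrays, against 0.08 and -0.04 in knockout arrays, with overlap. The chain pairs compared in this way were chosen after their values were seen and were not tested.

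Chains of type V collagen, which nucleates type I fibrils, had differences of opposite sign. Col5a1 read 5.86 and 5.44 in control cells against 6.16 and 5.75 in knockout cells, and the means differed by 0.30 (SE 0.23; adjusted p = 0.662 by limma). A second row of Col5a1 differed by 0.26. Col5a2 read 8.11 and 7.76 in control cells against 7.92 and 7.58 in knockout cells, and the means differed by -0.18 (SE 0.21; adjusted p = 0.780 by limma). The groups of both genes overlapped, and in each group replicate 1 was the higher array for both. Taken within arrays, Col5a1 minus Col5a2 deviated from its mean by -0.21 and -0.28 in the controls and by 0.28 and 0.21 in the knockouts, which did not overlap. Without control replicate 2 the Col5a1 difference was 0.09, and without control replicate 1 that of Col5a2 was -0.00097. Col5a3 differed by -0.02.

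Col11a1, a type XI chain that regulates fibril diameter in cartilage and can pair with type V chains, was the lower member with the smallest p. It read 4.81 and 5.18 in control cells against 4.21 and 4.47 in knockout cells. Both knockout arrays lay below both controls, and the difference between the means was larger than the gap within either group. The difference was -0.65 (SE 0.20, 95% interval -1.17 to -0.13), so the knockout level was 0.636 of the control level, with an unadjusted p of 0.0237 and an adjusted p of 0.356 by limma. Its difference ran from -0.84 without control replicate 1 to -0.47 without control replicate 2. Leaving out control replicate 2 gave an unadjusted p of 0.103 by limma, and leaving out knockout replicate 1 gave 0.0919, so the unadjusted p was no longer under 0.05 in either case. Col11a2, another chain of type XI, differed by -0.11 with overlap. Col2a1, the fibrillar chain of cartilage, read 3.58 and 3.71 in control cells against 3.51 and 3.34 in knockout cells, and the means differed by -0.22. Col27a1 differed by 0.16 with overlap, and Col24a1, below the filter level, by 0.15. Over the 10 tested fibrillar chains 5 were higher and 5 lower, with a median of 0.07.

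The sequences just before the annotated starts of Col3a1, Col1a2 and Col11a1 are shown because these fibrillar genes had knockout arrays wholly above (Col3a1 and Col1a2) or below (Col11a1) the controls. They are the 250 bases before the start, 5′ to 3′ on the gene's strand, from RefSeq promoter windows of build GRCm38.p6, in which 35 of the 44 genes had an entry. Col1a1 and Col2a1, the other tested fibrillar genes without overlap, had no entry and are not shown. Capitals mark matches on either strand to CCAAT, the core of a box bound by NF-Y, to TATAA, the core of the TATA box, and to GGGCGG, the core of a GC box. The windows lie at chr1:45311288-45311537 (plus strand) for Col3a1, chr6:4505368-4505617 (plus strand) for Col1a2 and chr3:114030290-114030539 (plus strand) for Col11a1.
Col3a1: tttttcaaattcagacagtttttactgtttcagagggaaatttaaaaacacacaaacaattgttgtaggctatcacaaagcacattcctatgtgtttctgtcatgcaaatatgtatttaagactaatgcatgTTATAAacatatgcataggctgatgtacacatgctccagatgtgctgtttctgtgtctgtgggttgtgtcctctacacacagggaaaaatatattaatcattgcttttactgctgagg
Col1a2: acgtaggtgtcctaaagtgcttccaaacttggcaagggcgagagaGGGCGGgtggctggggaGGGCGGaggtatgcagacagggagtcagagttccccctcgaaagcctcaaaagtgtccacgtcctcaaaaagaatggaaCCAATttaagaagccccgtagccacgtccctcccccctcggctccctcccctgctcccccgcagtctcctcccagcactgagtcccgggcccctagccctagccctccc
Col11a1: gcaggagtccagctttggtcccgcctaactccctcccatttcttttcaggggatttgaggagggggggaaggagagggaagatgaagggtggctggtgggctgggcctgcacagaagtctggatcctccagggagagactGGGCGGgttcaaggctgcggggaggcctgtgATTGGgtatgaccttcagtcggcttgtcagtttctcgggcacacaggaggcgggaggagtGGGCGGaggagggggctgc

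The Col3a1 stretch was 35.2% G and C, against 62.0% for Col1a2, 62.4% for Col11a1 and a median of 52.4% over all 32851 windows. It held TATAA overlapping its reverse complement TTATA, 117 and 118 bases before the annotated start, and no match to the other motifs. Col1a2 held CCAAT 109 bases before the start and GGGCGG at 188 and 205 bases. Col11a1 held ATTGG, the reverse complement of CCAAT, at 79 bases and GGGCGG at 19 and 110 bases. Over all windows 33.8% held CCAAT, 22.8% TATAA and 32.7% GGGCGG on either strand. Among the 38 windows of collagen genes, 13 held CCAAT, 7 TATAA and 22 GGGCGG.

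**Figure D2:**
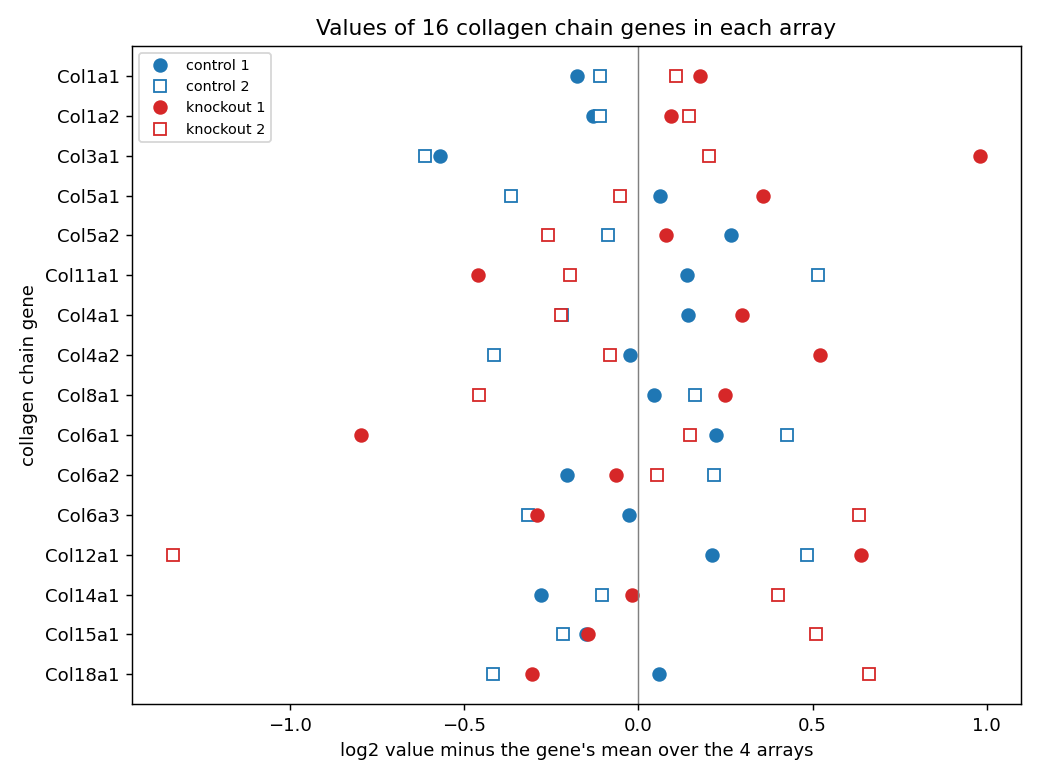
Log2 value of 16 collagen chain genes in each array, minus that gene's mean over the 4 arrays; blue marks are controls and red marks knockouts, filled for replicate 1 and open for replicate 2. Both knockouts lie to the right of both controls for Col1a1, Col1a2, Col3a1, Col14a1 and Col15a1 and to the left for Col6a1 and Col11a1, and the knockout arrays of Col12a1 lie 1.98 apart.

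Among the 5 tested network chains, Col4a5 alone had groups that did not overlap. Col4a1, with Col4a2 the main basement membrane chain around smooth muscle cells, read 7.26 and 6.90 in control cells against 7.42 and 6.90 in knockout cells, and the means differed by 0.08 (SE 0.24; adjusted p = 0.933 by limma). Its sign turned to -0.18 without knockout replicate 1 and to -0.11 without control replicate 2. Col4a2 read 5.48 and 5.09 in control cells against 6.02 and 5.42 in knockout cells, and the means differed by 0.44 (SE 0.27; adjusted p = 0.580 by limma), from 0.14 without knockout replicate 1 to 0.74 without knockout replicate 2. In each group replicate 1 was the higher array for both chains. Taken within arrays, Col4a2 minus Col4a1 deviated from its mean by -0.17 and -0.20 in the controls and by 0.22 and 0.14 in the knockouts, without overlap. These genes are direct neighbours in the RefSeq gene table and lie on opposite strands, and their chains form the same heterotrimer.

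Col4a5, an X-linked chain of specialised basement membranes, read 4.80 and 4.35 in control cells against 4.19 and 4.01 in knockout cells. The groups did not overlap, and the difference was -0.48 (SE 0.20, 95% interval -1.01 to 0.06; adjusted p = 0.469 by limma). Its neighbour Col4a6, below the filter level, differed by -0.04. Col8a1, a short-chain network collagen made by smooth muscle cells in injured arteries, read 9.20 and 9.31 in control cells against 9.40 and 8.69 in knockout cells. Knockout replicate 1 was the highest of the 4 and knockout replicate 2 the lowest, and the difference of -0.21 (SE 0.27) became 0.14 without knockout replicate 2. Col10a1, the network chain of hypertrophic cartilage, read 3.04 and 5.34 in control cells against 3.45 and 3.23 in knockout cells. Control replicate 2 alone was high, and the controls differed by 2.30, the widest control gap of any tested member. Col4a3 (-0.22), Col4a4 (0.27) and Col8a2 (-0.05) lay below the filter level. Of the 5 tested network chains 2 were higher and 3 lower, with a median of -0.21.

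Type VI collagen, which forms beaded microfilaments next to the cell surface, had its chains spread from lower to higher. Col6a1 read 5.95 and 6.16 in control cells against 4.94 and 5.88 in knockout cells. Both knockouts lay below the controls, knockout replicate 2 by less than 0.1. The difference was -0.65 (SE 0.34, 95% interval -1.54 to 0.24; adjusted p = 0.533 by limma), and it was -1.12 without knockout replicate 2 and -0.18 without knockout replicate 1. A second row of Col6a1 read 5.29 and 5.56 in control cells against 4.50 and 5.45 in knockout cells, and the means differed by -0.45 with overlap. Its neighbour Col6a2 read 3.69 and 4.11 in control cells against 3.83 and 3.95 in knockout cells, and the means differed by -0.01, which turned to 0.05 without knockout replicate 1 and to 0.20 without control replicate 2. Col6a3, the chain with the longest end domains, read 5.26 and 4.97 in control cells against 4.997 and 5.92 in knockout cells. Only knockout replicate 2 was high, and the difference of 0.34 (SE 0.34) became -0.12 without it. Col6a4, Col6a5 and Col6a6 lay below the filter level and differed by -0.04, 0.07 and -0.03.

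Among the FACIT chains, Col14a1 alone had both knockout arrays above the controls among tested members. Col14a1, which binds fibril surfaces and limits fibril growth, read 5.12 and 5.29 in control cells against 5.38 and 5.80 in knockout cells. The difference was 0.38 (SE 0.20, 95% interval -0.13 to 0.90; adjusted p = 0.526 by limma). It was 0.17 without knockout replicate 2 and 0.59 without knockout replicate 1. Col12a1, a FACIT chain of tissues under tension, read 7.81 and 8.09 in control cells against 8.24 and 6.27 in knockout cells. The knockout arrays lay on either side of the controls and 1.98 apart, the widest knockout gap of any tested member. The difference of -0.70 (SE 0.66; adjusted p = 0.732 by limma) was 0.29 without knockout replicate 2 and -1.68 without knockout replicate 1. Col9a2, Col9a3 and Col16a1 were lower without overlap (27.5% of all tested genes), by -0.17, -0.14 and -0.10. Each of these differences was smaller than the gap between the knockout arrays of that gene. Col20a1 differed by 0.06, and Col9a1 (0.10), Col19a1 (-0.04) and Col22a1 (0.04) lay below the filter level. The 6 tested FACIT chains had 2 higher, 4 lower and a median of -0.12.

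Transmembrane collagens, which span the membrane with the collagen helix outside the cell, lay close to the filter level, and the groups of the 3 tested chains overlapped. Col23a1 differed by 0.24, Col25a1 by 0.12 and Col13a1 by 0.04, and Col17a1, below the filter level, differed by 0.13 without overlap.

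Multiplexins, basement membrane collagens whose end fragments include endostatin, were highest in knockout replicate 2. Col15a1 read 3.96 and 3.90 in control cells against 3.97 and 4.62 in knockout cells. Knockout replicate 1 was almost level with the controls, and the difference of 0.37 (SE 0.25; adjusted p = 0.620 by limma) was 0.04 without knockout replicate 2. Col18a1, the source of endostatin, read 4.60 and 4.12 in control cells against 4.24 and 5.20 in knockout cells. Its difference of 0.36 (SE 0.37) became -0.13 without knockout replicate 2. Col28a1, a chain with beaded-filament features, read 3.41 and 3.49 in control cells against 3.21 and 4.37 in knockout cells, and the means differed by 0.34. Col26a1 differed by 0.06, and Col7a1, the anchoring-fibril chain of skin, by -0.10, both with overlap.

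The knockout arrays were often further apart than the controls among collagen chains. In 22 of the 32 tested members the gap between the knockout arrays was larger than that between the controls, where 50.1% of all tested genes had it so. The median gap was 0.26 in the knockouts and 0.18 in the controls, beside 0.19 in each group over all tested genes. Knockout replicate 1 was the higher array for Col3a1, Col4a1, Col4a2, Col8a1 and Col12a1, and knockout replicate 2 for Col6a1, Col6a3, Col14a1, Col15a1, Col18a1 and Col28a1. In 6 members, Col1a1, Col1a2, Col2a1, Col3a1, Col4a5 and Col11a1, the difference exceeded the gap within either group, where 31.1% of all tested genes did.

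**Figure D3:**
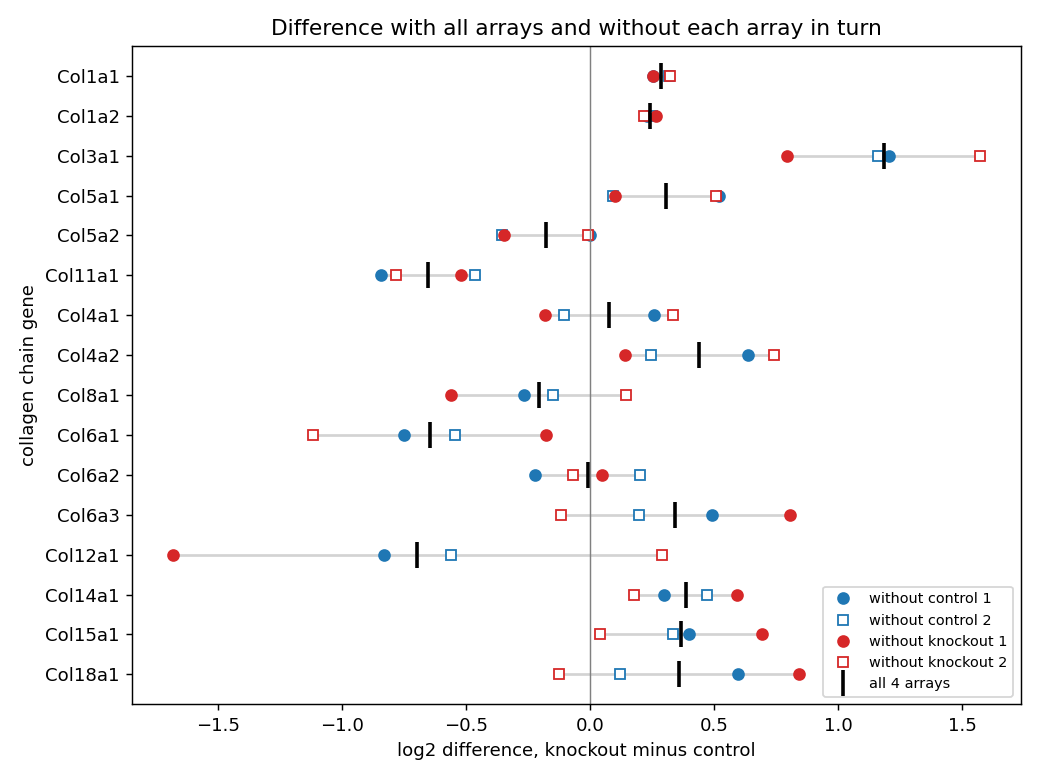
Log2 difference, knockout minus control, of 16 collagen chain genes with all 4 arrays (black bars) and without each array in turn (blue: a control left out; red: a knockout left out). Col4a1, Col6a2, Col6a3, Col8a1, Col12a1 and Col18a1 cross 0. All other plotted genes keep their sign, though Col5a2 comes as near to 0 as -0.00097 without control replicate 1.

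Collagen genes that adjoin each other on a chromosome could differ by unlike amounts. Col3a1 (1.18) and Col5a2 (-0.18) are direct neighbours among protein-coding genes in the RefSeq table of GRCm38.p6, as are Col6a1 (-0.65) and Col6a2 (-0.01). Relative to Col5a2 within each array, Col3a1 deviated from its mean by -0.84 and -0.53 in the controls and by 0.90 and 0.46 in the knockouts. These values describe the neighbours and were not tested.

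Genes that fold, trim, bind and degrade collagen were read from lists of the wider pathway, and limma called 0 of their tested members. Among chain processing and folding genes, 16 of 19 listed were tested, 5 higher and 11 lower with a median of -0.06. Over all tested genes 41.7% were higher and 58.3% lower, with a median of -0.05. Plod1, a lysyl hydroxylase of collagen helices, read 6.82 and 6.86 in control cells against 7.41 and 7.56 in knockout cells. Its difference of 0.64 (SE 0.14; unadjusted p = 0.00684, adjusted p = 0.262 by limma) was the widest of that list without overlap. Colgalt1, which adds galactose to hydroxylysine, differed by 0.34, P3h4, a partner of lysyl hydroxylation, by -0.42 and Sec31a, a coat protein of the vesicles that export cargo from the endoplasmic reticulum, by -0.26.

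Procollagen cleavage and crosslinking genes were lower in 7 of 8 tested members (58.3% of all tested genes), with a median of -0.40 beside -0.05 over all tested genes. Tll1, a tolloid protease that removes procollagen C-propeptides, read 8.41 and 7.997 in control cells against 5.63 and 6.49 in knockout cells, and the means differed by -2.14 (SE 0.34; unadjusted p = 0.00172, adjusted p = 0.187 by limma). Bmp1, the protease of the same family best known for that step, read 7.05 and 6.59 in control cells against 7.17 and 7.20 in knockout cells, and the means differed by 0.36. Both knockout arrays were lower for Tll1 and higher for Bmp1. Loxl4, a lysyl oxidase of collagen crosslinks, differed by -0.99, and Pcolce2, an enhancer of C-propeptide removal, by -0.40.

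Collagen receptors had 3 of 8 tested members higher (41.7% of all tested genes) and 5 lower (58.3%), with a median of -0.02. Itga2, a collagen-binding integrin chain, read 6.49 and 6.72 in control cells against 4.62 and 5.82 in knockout cells, and the means differed by -1.38 (SE 0.42; adjusted p = 0.356 by limma). Ddr2, a receptor tyrosine kinase for fibrillar collagen, read 7.50 and 7.42 in control cells against 6.85 and 5.97 in knockout cells, and the means differed by -1.05 (SE 0.32; adjusted p = 0.356 by limma). Lair1, an inhibitory collagen receptor of leukocytes, read 5.45 and 5.24 in control cells against 6.86 and 6.43 in knockout cells, and the means differed by 1.31 (SE 0.20; adjusted p = 0.187 by limma).

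Collagen-degrading proteases had 4 of 8 tested members higher (41.7% of all tested genes) and 4 lower (58.3%). Mmp14, the targeted gene, read 8.71 and 9.05 in control cells against 8.27 and 8.19 in knockout cells, without overlap (difference -0.65, SE 0.17; adjusted p = 0.319 by limma). Whether its row includes probes outside the deleted part was not tested, nor was any other reason for the size of this difference. Mmp13, the main soluble collagenase of mice, read 8.28 and 9.07 in control cells against 6.83 and 8.13 in knockout cells, and the means differed by -1.20 (SE 0.51). Mmp16, a membrane-anchored relative of Mmp14, differed by -1.74 and Fap, a fibroblast surface protease, by 0.32, neither with overlap.

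Markers of other cell types also differed between the same groups. Of 9 smooth muscle markers 4 were higher (41.7% of all tested genes) and 5 lower (58.3%). Their mean levels were 6.88 and 6.62 in control arrays, against 7.16 and 6.61 in knockout arrays. Actg2 was higher without overlap, by 1.14. Smtn and Myocd were lower without overlap, by -0.55 and -0.14, and the groups of the rest overlapped. Over all tested genes 16.7% were higher and 27.5% lower without overlap. All 13 macrophage markers were higher in the knockouts (41.7% of all tested genes), 12 of them without overlap (16.7%), and their mean level was 6.87 and 6.92 in control arrays, against 7.999 and 8.28 in knockout arrays. Of 9 tested endothelial markers (10 listed) 7 were lower (58.3% of all tested genes), all 7 without overlap (27.5%). Kdr went the other way, higher by 0.32 without overlap, and Vwf was higher by 0.29 with overlap. The mean level of the 9 tested endothelial markers was 5.75 and 5.28 in control arrays, against 4.06 and 4.31 in knockout arrays. Adventitial fibroblasts are rich sources of Col1a1, Col1a2, Col3a1 and Col14a1, and 7 of 10 listed markers of these cells were tested. Their mean level was 6.42 and 6.67 in control arrays, against 6.13 and 6.17 in knockout arrays. Of these tested markers 3 were higher (41.7% of all tested genes) and 4 lower (58.3%). Dpt and Cd34, the latter also known from endothelium, were lower without overlap, by -1.51 and -2.40, Serpinf1 was higher without overlap, by 0.52, and Dcn (0.46), Lum (0.74) and Pdgfra (-0.29) overlapped. No marker of these lists reads 0 on this scale, which has no measured background. The part of macrophages, endothelial cells or fibroblasts in the collagen and receptor values was not tested.

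**Figure D4:**
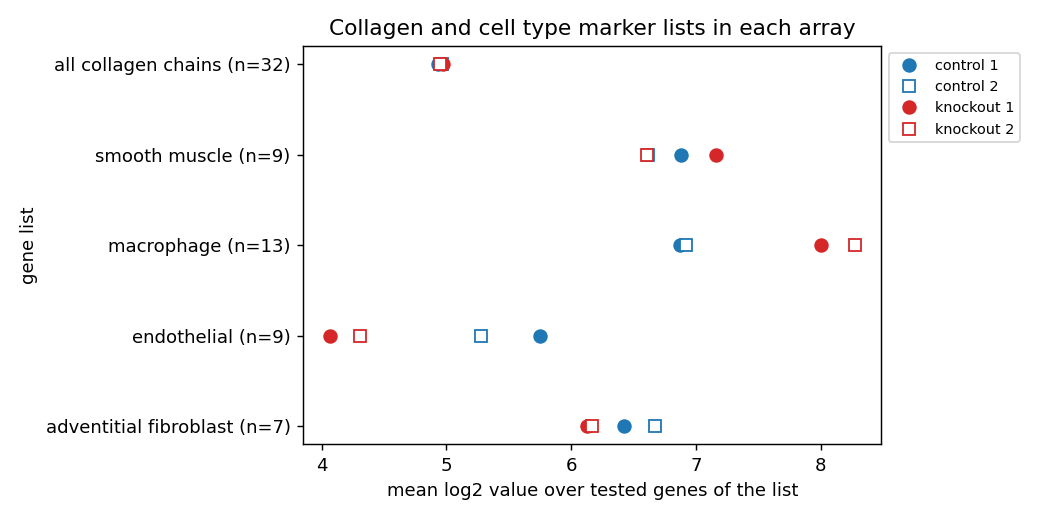
Mean log2 value over the tested genes of the collagen list and of the marker lists of 4 cell types in each array; blue marks are controls, red marks knockouts, filled for replicate 1 and open for replicate 2. The mean of the macrophage markers is higher and that of the endothelial markers lower in both knockout arrays. The mean of the 32 collagen chain genes lies between 4.93 and 4.97 in all 4 arrays.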

How the data were processed

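RNA was amplified from 10 ng with a whole-transcriptome kit, per the labels' protocols, and hybridised to Mouse Gene ST 2.1 arrays. The authors deposited log2 expression values for 41345 rows. RMA made them, per the submitters' processing notes. That the scale is log2 was read from the values, which span 1.17 to 12.4, and neither build nor software version is given in the sources used here. RMA brings the arrays to a common distribution, so a shift shared by most genes would not show. The platform annotation gave 1 symbol for 23521 rows, several for 1814 (not named) and none for 16010. The 47 collagen rows with 1 symbol held 44 genes, all found in the RefSeq gene table; 1 row that Col6a1 shared with other genes was left out.

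The main test was limma 3.58.1 in R 4.3.3 (lmFit, eBayes) on the 12550 genes with a mean of at least 3.02, with no covariate, Benjamini-Hochberg adjustment and 95% intervals. Its p-values reflect array-to-array spread, in which mouse, culture and hybridisation cannot be told apart. The fit was tested on simulated data, and matplotlib 3.10.9 drew the plots. The members, classes and lists were chosen with earlier results of these data known.

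Values in every array are given for a fixed list of 15 chains of types I, III, IV, V, VI, VIII, XII, XIV, XV and XVIII and for other tested members without overlap and with an absolute difference of at least 0.5 (Col11a1). Pathway lists name up to 4 members without overlap and with the largest absolute difference. Per-array values of Col2a1, Col4a5, Col10a1 and Col28a1, the neighbouring genes and the chain pairs were added after their values were seen. Alternatives were a replicate block, other filters, a second quantile normalisation, median centring, the mean of a gene's rows, eBayes with a trend, array weights and leaving out each array. Depth does not apply to arrays.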

Additional observations from a re-analysis of the deposited data

How the results depend on the processing

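Limma called 0 genes under each of the 12 alternatives run. Among 16 collagen genes followed one by one, the sign turned in 8 of 188 refits, each of them without 1 array. The replicate block, the other filters, the trend and the array weights leave the difference itself unchanged, so those refits could not turn a sign. With 1 array left out, the differences ran from -0.18 to 0.33 for Col4a1, from -0.22 to 0.20 for Col6a2, from -0.12 to 0.80 for Col6a3, from -0.56 to 0.14 for Col8a1, from -1.68 to 0.29 for Col12a1 and from -0.13 to 0.84 for Col18a1. The other 180 kept their sign. With 0 genes called in every setting, no refit could move a collagen gene across the adjusted p threshold. With the title number as a replicate block, 3 members were lower at an unadjusted p under 0.05 (Col11a1, Col4a5 and Col6a1) in place of 1, and with a trend in eBayes 3 were higher (Col1a1, Col1a2 and Col3a1) in place of 1. Under the 75th percentile filter, which left 12 of the same members, 0 were lower at that level. Their median difference was 0.26, with 4 above and 1 below without overlap. Shares and medians over all genes were not computed for the block, trend and filter refits, nor for the refits without 1 array. The member counts and medians of all these refits therefore have no background to be read against. The all-gene shares of the main fit do not apply to them. Without each array in turn, 1 to 6 members were higher and 1 to 2 lower at that level (the lower ones were Col10a1 and Col11a1 without control replicate 1, Col4a5 without control replicate 2, Col8a1 and Col12a1 without knockout replicate 1, and Col6a1 and Col11a1 without knockout replicate 2), 8 to 14 lay above and 9 to 13 below without overlap (fewer arrays overlap less), and the median difference ran from -0.017 to 0.049. The design text speaks of pairs of mice but not of which numbers pair, so the arrays were treated as unpaired. Deviations of same-numbered arrays correlated at 0.045 over tested genes. With 2 arrays a group, that value cannot show whether the numbers mark the pairs. The 2 arrays a group and the lack of a measured background limit what low members can show.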
